A study of Caenorhabditis elegans with 2 samples.

Results

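The genes of the eggshell and the egg surface of Caenorhabditis elegans were examined for binding of the tagged zinc finger protein ZTF-28. They were 9 of the 19985 protein-coding genes of the annotation, namely cpg-1, cpg-2, egg-1, egg-2, egg-3, cbd-1, chs-1, perm-2 and perm-4. The members were chosen by name with earlier results of these data known, in which cpg-1 and egg-1 stood among the genes with high peak signal, so the signal values below are a description and no test was made on them. A peak was given to a gene where its summit, the base with the highest signal, lay within 1000 bp of any annotated transcript start of that gene.

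Chromatin immunoprecipitation and sequencing (ChIP-seq), in which DNA bound by a protein is recovered with an antibody and sequenced, was done on whole worms of strain RW12281. Its allele, st12281[ztf-28::TY1::EGFP::3xFLAG] V, is a CRISPR insertion at ztf-28 on chromosome V, and the fusion protein was pulled down from sonicated chromatin through an anti-GFP antibody. The worms were hatched and starved at the first larval stage after bleaching, then grown to young adults of 63 hours. The design held 1 group of 2 libraries, given as biological replicates 1 and 2, with no second strain, stage or treatment. No control library was analysed here, and the labels do not say how many animals were pooled. Because whole worms were used, the tissue in which a site was bound cannot be told apart, and no RNA was measured that could be set against tissue markers.

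The authors' lists are of 2 kinds. Ranked lists hold every candidate peak, and thresholded lists hold the peaks that passed a limit on the irreproducible discovery rate (IDR). The IDR is low where a peak ranks high in both sets compared. A weak peak can have a high IDR even where its values are alike. The conservative thresholded list held 1086 peaks with an IDR of at most 0.00999, and the optimal list 1137. Replicate 1 alone had 342 thresholded peaks and replicate 2 alone 411. The ranked list behind the conservative one held 103094 peaks with a median pooled signal of 23.9, against 94.8 in the conservative list. The scale of the signal is not stated in the sources used here. Read counts were not part of the lists, so depth is unknown. Pooled signals are compared only with pooled signals. The values of replicates 1 and 2 are also set side by side, and whether their scales are alike was not tested.

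The eggshell has, from the outside in, a vitelline layer, a chitin layer, a layer of chondroitin proteoglycans and a lipid-rich permeability barrier. Its parts are made in the maternal germline before they are needed, so their genes belong to the oocyte programme. EGG-1 and EGG-2 are related transmembrane proteins of the oocyte surface with LDL receptor repeats and are needed for sperm entry. EGG-3 is a phosphatase-like protein without catalytic activity that holds the chitin synthase CHS-1 at the oocyte cortex, CBD-1 is a chitin-binding protein of the vitelline layer, PERM-2 and PERM-4 are vitelline layer proteins, and CPG-1 and CPG-2 are chondroitin proteoglycans that bind chitin.

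The sequences below are shown because they lie under the summits of the conservative peaks of 2 members on chromosome III, and because egg-2, the close relative of egg-1, had no such peak. For cpg-1 and egg-1 they are the 151 bases centred on the summit. For egg-2 they are the bases 168 to 18 upstream of its start, the same stretch relative to the start as for egg-1. All are read 5′ to 3′ on the strand of the gene from the RefSeq genome WBcel235, the sequence of assembly ce11, and none touches an annotated exon. Capitals mark the words GCGGGAAA and GCGCGAAA on either strand, which are counted further on.
cpg-1 (chrIII:4489047-4489197, plus strand): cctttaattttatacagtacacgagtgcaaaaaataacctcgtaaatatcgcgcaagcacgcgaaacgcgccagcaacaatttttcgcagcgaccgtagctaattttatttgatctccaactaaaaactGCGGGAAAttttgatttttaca
egg-1 (chrIII:5728012-5728162, plus strand): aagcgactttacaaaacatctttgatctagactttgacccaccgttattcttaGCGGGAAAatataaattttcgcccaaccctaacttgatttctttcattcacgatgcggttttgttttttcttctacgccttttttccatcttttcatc
egg-2 (chrIII:7060601-7060751, minus strand): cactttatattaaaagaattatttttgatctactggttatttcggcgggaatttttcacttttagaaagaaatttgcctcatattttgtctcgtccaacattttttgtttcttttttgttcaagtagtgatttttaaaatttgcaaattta

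Of the 9 genes, 4 had a conservative peak, namely cpg-1, egg-1, chs-1 and cpg-2. Over all 19985 protein-coding genes 884 did, which is 4.42% (95% Wilson interval 4.15 to 4.72, counting error only). In the optimal list 3 of the 9 remained, cpg-1, egg-1 and cpg-2, against 4.52% of all protein-coding genes. In the list of replicate 1 alone cpg-1 was the only member, against 1.62% of all genes, and in that of replicate 2 alone it was again cpg-1, against 1.95%. The shares over all genes are given for scale and nothing is read from the difference, since the members were chosen with these signals known. On chromosome III, 3 of the 4 members had a conservative peak, against 6.93% of its 2640 protein-coding genes, and on chromosome IV none of 3 did, against 4.97%. The single members on chromosomes I and II were chs-1, with a peak, and egg-3, without one.

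At the level of ranked peaks every member had at least 1 peak in its window, as did 16462 protein-coding genes (82.4%), so the mere presence of a ranked peak separates few genes. The strongest ranked peak of the members had a median pooled signal of 58.5, with a range of 36.4 to 282.5. Over the 16462 genes the median was 38.3, the quartiles were 28.8 and 50.1 and the 95th percentile was 80.0. Thus cpg-1 and egg-1 lay above that percentile, chs-1 at 79.7 and cpg-2 at 77.8 just under it, and egg-2 alone lay below the median of these 16462 genes. The members held 28 ranked peaks in all, between 1 and 5 each with a median of 3. Over all protein-coding genes, those without a ranked peak included, the median was 2. Since every member had a ranked peak, these medians are not a like-for-like comparison and nothing is read from their difference.

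**Figure D1:**
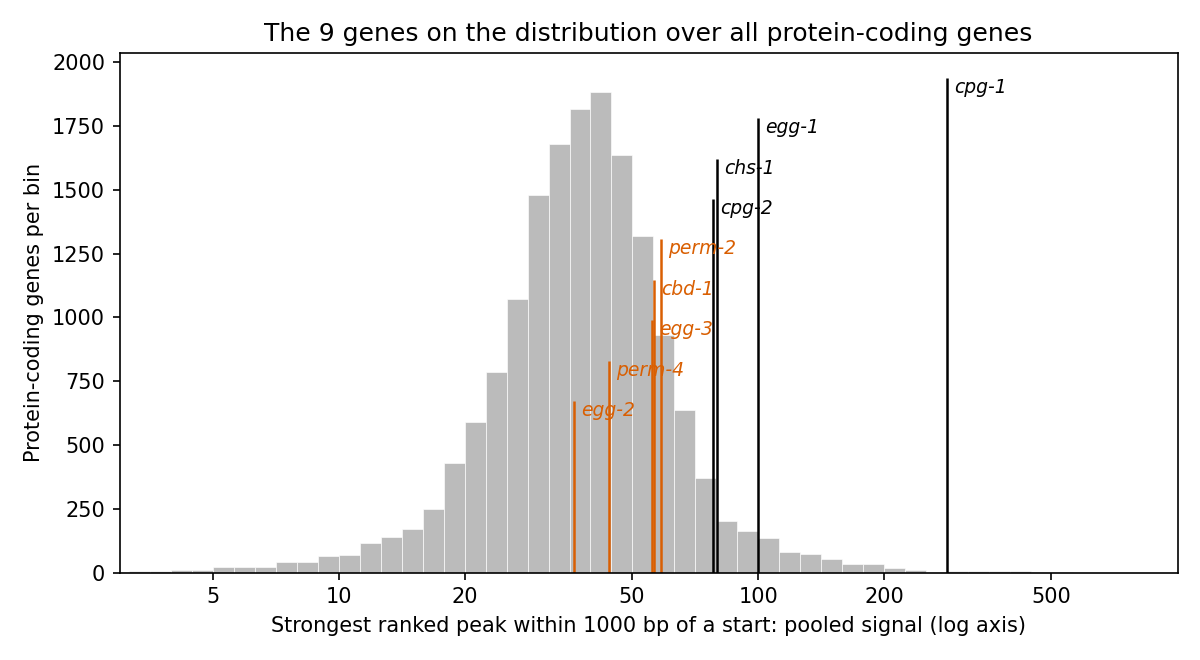
Histogram of the strongest ranked peak within 1000 bp of a start for protein-coding genes with a ranked peak (x axis: pooled signal on the deposited scale, log axis; y axis: genes per bin), with a vertical line for each of the 9 genes, black for those with a conservative peak and orange for the rest. The cpg-1 line at 282.5 stands far in the right tail, egg-1, chs-1 and cpg-2 at its shoulder, and egg-2 at 36.4 left of the peak of the histogram.

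The proteoglycan gene cpg-1 had the strongest site of the group. Its peak at chrIII:4488972-4489271 had values of 156.3 in replicate 1 and 118.7 in replicate 2, a mean of 137.5 ± 26.6 (SD, n = 2), and a pooled signal of 282.5. Its summit lay 237 bp upstream of the start, between genes, and the site stood at rank 39 of the 103094 ranked peaks and rank 29 of the conservative list, with an IDR of 3.72e-05. In all, 35 protein-coding genes (0.175%) had a strongest peak at least as high, cpg-1 included. It was the 24th strongest peak of replicate 1 and the 65th of replicate 2, and the summits of the 2 replicates lay 12 bp apart.

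The rest of the cpg-1 locus was weaker. The next peak in the window was 5.11 times weaker than the summit peak, with a signal of 55.3 at 416 bp downstream of the start, in coding sequence. Another lay at 994 bp with 49.6, just inside the window, and the nearest one just outside it lay 1055 bp upstream with 41.9. The replicates were ordered differently in the gene body: the peak at 416 bp had 18.6 in replicate 1 and 40.6 in replicate 2, and that at 994 bp had 17.8 in replicate 1 and 36.1 in replicate 2, while the upstream site was higher in replicate 1. Beyond the 3′ end of cpg-1, 2053 bp from the start, the optimal list held a further peak with a signal of 67.4 and an IDR of 0.0247 in the ranked list of the replicate comparison, outside the window.

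The second proteoglycan gene, cpg-2, had a lower peak. Its upstream site at chrIII:7104100-7104399 had values of 33.5 in replicate 1 and 47.8 in replicate 2 (mean 40.7 ± 10.2, SD, n = 2), a pooled signal of 77.8 and an IDR of 0.00828. The summit lay 260 bp upstream of the start, close to the 237 bp of cpg-1, and stood at rank 1120 of the ranked peaks. Unlike cpg-1 it had a second conservative peak inside the gene, at chrIII:7102508-7102807, in coding sequence 1332 bp from the start and so outside the window. That peak had values of 34.02 and 45.59 in replicates 1 and 2, a pooled signal of 69.5 and an IDR of 0.00847, so the upstream and gene-body sites differed by less than the replicates of either did. Within the window, 3 weaker peaks of 20.8, 46.2 and 31.3 lay 228, 428 and 853 bp downstream of the start, all in coding sequence.

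Of the pair of oocyte surface genes needed for sperm entry, egg-1 had a conservative peak and egg-2 did not. The egg-1 peak at chrIII:5727937-5728236 had 57.7 in replicate 1 and 46.0 in replicate 2 (mean 51.9 ± 8.25, SD, n = 2), a pooled signal of 99.6 and an IDR of 0.00161, with its summit 93 bp upstream of the start. It stood at rank 524 of the ranked peaks, and 477 protein-coding genes (2.39%) had a strongest peak at least as high. A second intergenic peak lay 608 bp upstream with a signal of 60.9. That peak was uneven, with 15.1 in replicate 1 and 43.8 in replicate 2, and had an IDR of 0.365 in the replicate comparison and 0.0308 in the optimal ranked list.

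For egg-2 the strongest ranked peak had 24.6 in replicate 1 and 11.3 in replicate 2, with a pooled signal of 36.4 and an IDR of 0.517. Its summit lay in coding sequence 551 bp downstream of the start. The single ranked peak upstream of egg-2, 645 bp from its start and in an intron of R01H2.4, had a signal of 20.2, against 99.6 for the site upstream of egg-1. Each replicate was higher at the strongest egg-1 peak than either replicate at the strongest egg-2 peak. The 45.3% of protein-coding genes at or above egg-2 place it near the middle of all genes. The nearest conservative summit to egg-2 was 42075 bp away, the gene-body peak of cpg-2, since the genes egg-2 and cpg-2 lie 41508 bp apart on chromosome III.

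The phosphatase-like egg-3 resembled egg-2 in the place of its strongest peak. That peak lay in coding sequence 857 bp downstream of the start, with 31.4 in replicate 1 and 23.1 in replicate 2, a pooled signal of 55.9 and an IDR of 0.116. Upstream of egg-3, 171 bp from the start, the ranked peak had a signal of 25.04 and an IDR of 0.761. The nearest conservative summit lay 11671 bp away, near the start of copz-1.

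The chitin synthase gene chs-1, whose product makes the chitin layer, had a conservative peak close to the threshold. At chrI:7554624-7554923 the values were 45.7 in replicate 1 and 33.8 in replicate 2 (mean 39.7 ± 8.43, SD, n = 2), with a pooled signal of 79.7 and a summit 81 bp upstream of the start. Its IDR was 0.00934 in the replicate comparison, just inside the limit of 0.01, and 0.0115 in the optimal ranked list, so it is absent from the optimal list. The next strongest peak in its window, 549 bp upstream in the coding sequence of T25G3.1, had a signal of 31.0, and the strongest was 2.57 times as high. The start of T25G3.1 lay 930 bp from the summit, and it was the only other gene with a start within 1000 bp of the strongest peak of any member that had a conservative peak.

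None of the 3 vitelline layer genes had a conservative peak, and the site at cbd-1 came nearest to the limit. At cbd-1 the strongest peak had 27.3 in replicate 1 and 37.1 in replicate 2, a pooled signal of 56.4 and an IDR of 0.0385, with its summit 34 bp upstream of the start. It was the only strongest peak outside the conservative list that lay upstream of its gene. Its IDR in the optimal ranked list was 0.1. In replicate 1 alone another peak, 671 bp upstream of cbd-1, was stronger, with 31.4. At perm-2 the strongest peak had 21.9 in replicate 1 and 32.8 in replicate 2, with a pooled signal of 58.5 and an IDR of 0.119, in coding sequence 60 bp downstream of the start. A peak of 45.6 lay at 1002 bp, just outside the window of perm-2.

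At perm-4 the replicates were far apart, with 10.1 in replicate 1 and 31.1 in replicate 2 for a pooled signal of 44.0 and an IDR of 0.545, in coding sequence 151 bp downstream of the start. The genes perm-2 and perm-4 run in opposite directions from a shared intergenic stretch of 1682 bp. The ranked peaks in that stretch within a window had a signal of at most 35.0, for the peak 543 bp upstream of perm-2 and 1140 bp upstream of perm-4. The nearest conservative summit to the pair, 30751 bp from perm-4, belonged to the start region of Y55F3AR.2.

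**Figure D2:**
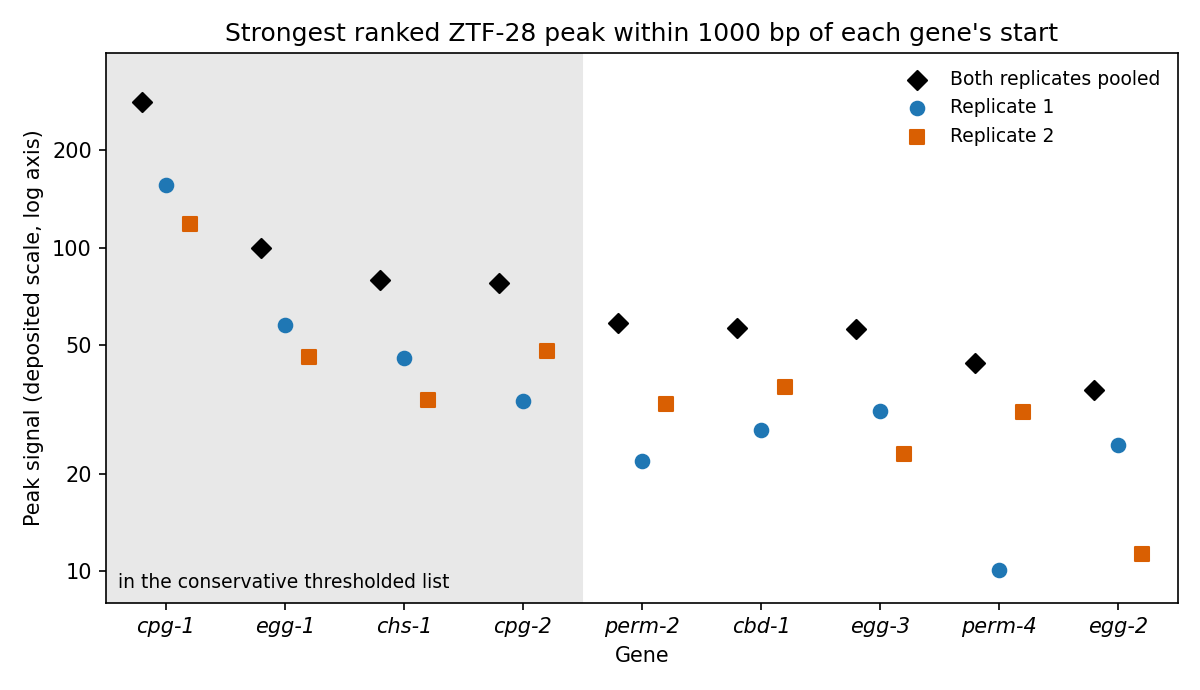
Pooled signal (black diamonds), replicate 1 (blue circles) and replicate 2 (orange squares) of the strongest ranked peak within 1000 bp of a start of each of the 9 genes (y axis: deposited signal scale, log axis), with the genes that had a conservative peak on grey. Replicate 1 is the higher at cpg-1, egg-1, chs-1, egg-3 and egg-2 and replicate 2 at the rest, and the replicates are farthest apart at perm-4, at 10.1 and 31.1.

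The replicate values of the 4 genes with a conservative peak were set beside those of the other peaks of that list, which was itself chosen by agreement of the replicates. The value in replicate 1 divided by that in replicate 2 was 1.32 at cpg-1, 1.25 at egg-1, 1.35 at chs-1 and 0.700 at cpg-2. Over the 1086 conservative peaks this ratio had a median of 0.955 and ran from 0.593 to 1.52 between the 5th and 95th percentiles, and all 4 lay within that range. Since the IDR filter favours such peaks, nothing is read from their lying within it or from others lying outside. Among the other 5 members, perm-4 with 0.324 and egg-2 with 2.17 lay outside it, while perm-2, cbd-1 and egg-3 had 0.666, 0.735 and 1.36. Summits of the replicates lay 12 to 39 bp apart at the 4 genes with a conservative peak, against a median of 27 bp over the conservative peaks, and 5 to 103 bp apart at the other 5. In each replicate alone, egg-1 had an IDR of 0.0131 in replicate 1 and 0.523 in replicate 2, chs-1 0.103 and 0.758, and cpg-2 0.122 and 0.107, whereas cpg-1 had 3.17e-05 and 7.96e-05.

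At cpg-1, cpg-2 and egg-1 all 9 weaker ranked peaks in the windows had the higher value in replicate 2, although some of them share 1 peak of a replicate. The weaker peaks of the other genes were mixed in that order. The second replicate value was the higher at 12 of the 19 weaker peaks of all 9 genes, and the lower at all weaker peaks of chs-1, cbd-1 and perm-2. It was the higher at all weaker peaks of egg-2 and at the egg-3 peak 171 bp upstream, and the lower at the other weaker peak of egg-3. It was the higher at 52.7% of all 103094 ranked peaks, and at the strongest peak of 4 of the 9 genes. No difference between weaker and strongest peaks was tested.

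The place of the strongest peak differed between the genes. It lay between genes and upstream of the start at all 4 genes with a conservative peak, 81 to 260 bp away, and at cbd-1. It lay in coding sequence downstream of the start at perm-2, egg-3, perm-4 and egg-2. Over the 674 conservative peaks near protein-coding starts, 515 (76.4%) were upstream, with a median offset of 174 bp upstream and quartiles of 336 and 9.25 bp upstream. In every case the member's own start was the nearest one to its strongest summit, and apart from T25G3.1 the closest start of another gene was 1165 bp away, that of sec-31 beside cbd-1. The nearest other start to the cpg-1 summit was that of atf-7 at 4972 bp, and that to the egg-1 summit was B0244.9 at 2943 bp.

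**Figure D3:**
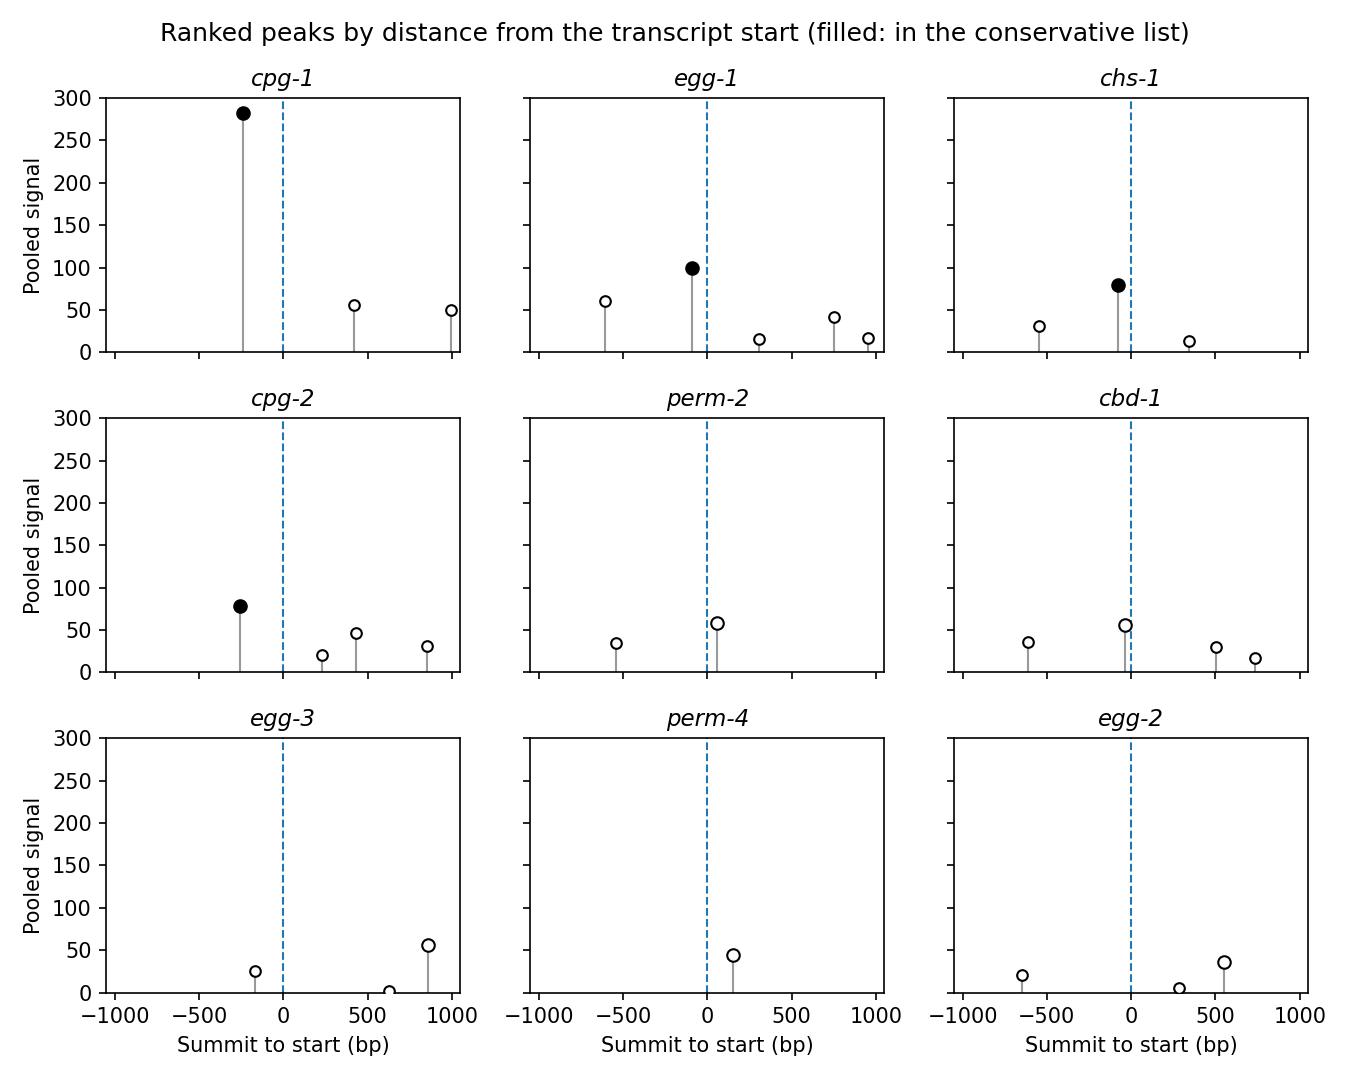
All ranked peaks in the window of each of the 9 genes (x axis: distance of the summit from the transcript start in bp, negative upstream on the gene's strand; y axis: pooled signal), with filled points for peaks of the conservative list and open points for the rest, and a dashed line at the start. The filled points of cpg-1, egg-1, chs-1 and cpg-2 stand 81 to 260 bp upstream, while the highest open points of perm-2, egg-3, perm-4 and egg-2 stand downstream of the start.

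Other genes of the eggshell, the yolk, oocyte maturation and fertilization were taken from 8 further lists, in which 51 of 54 symbols were found. Of these 51 genes 4 had a conservative peak (7.84%), 5 an optimal one, 1 a thresholded peak in replicate 1 alone and 2 in replicate 2 alone, and 46 had a ranked peak. Over all protein-coding genes the thresholded shares were 4.42%, 4.52%, 1.62% and 1.95% in the same order. With summits given to the nearest start the 4 became 3 (5.88%, against 2.41% of all genes). Within 500 bp they became 2 (3.92%, against 3.2%). Nothing is read from these differences. The strongest peak had a median pooled signal of 58.5 over the 9 members, against 40.96 over these 46 genes and 38.3 over all genes with a ranked peak. In a list of egg-4, egg-5, egg-6 and mbk-2, drawn up for the partners of EGG-3 although EGG-6 is not known as one, egg-5, which encodes a phosphatase-like protein that acts with EGG-3, had a conservative peak with 57.4 in replicate 1 and 83.9 in replicate 2 and a pooled signal of 138.2. That summit lay 610 bp from egg-5 and only 7 bp from the start of the spliced leader RNA gene sls-2.4 and 107 bp from that of R12E2.18, so egg-5 was not the nearest gene. Its near copy egg-4 had 29.3 in replicate 1 and 52.8 in replicate 2, a pooled signal of 77.8 and an IDR of 0.0145, and was in the optimal list but not in the conservative one. The treatment of reads that match both near copies is not stated. The pooled signal was 73.2 at egg-6 and 55.2 at mbk-2.

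Each count of conservative peaks below stands beside 4.42% of all protein-coding genes. Of 5 other proteoglycan genes of the cpg family 1 had a conservative peak, cpg-8, with 49.99 and 51.13 in replicates 1 and 2, a pooled signal of 102.5 and a summit 523 bp upstream. Among 10 genes of the permeability barrier it was perm-1 alone, with 72.3 in replicate 1 and 40.0 in replicate 2 for a pooled signal of 112.4, 278 bp upstream. Among 6 genes of yolk uptake and oocyte maturation it was rme-2, the yolk receptor gene, with 38.9 and 43.7 in replicates 1 and 2 and a pooled signal of 86.3, 62 bp upstream. No conservative peak was found for 4 genes of chitin precursor synthesis (a count of 0 allows up to 75%), 9 of chondroitin synthesis (33.3%), 6 vitellogenin genes (50%) and 7 genes of sperm proteins of fertilization (42.9%). In the first of these, gna-1, a glucosamine phosphate acetyltransferase gene, had a pooled signal of 77.4 with an IDR of 0.0226. The remaining proteoglycan genes with a ranked peak, cpg-3, cpg-4 and cpg-7, had 34.8, 42.7 and 34.4, and the 8 genes with a ranked peak among the enzymes that make chondroitin chains had a median of 33.3. Over genes with a ranked peak the median was 47.4 in chitin precursor synthesis, 38.8 in other cpg genes, 37.0 in the permeability barrier, 44.4 in yolk uptake and oocyte maturation, 36.5 in vitellogenins and 40.9 in sperm proteins.

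**Figure D4:**
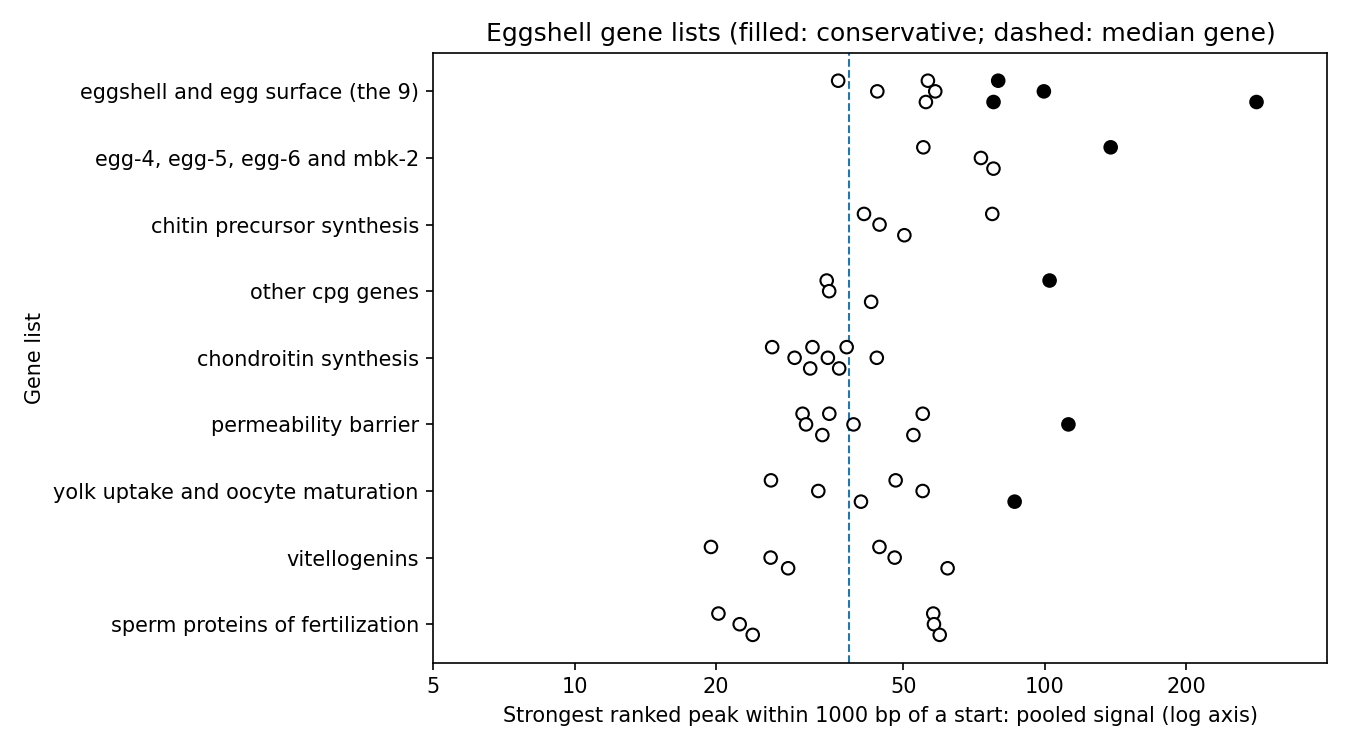
Strongest ranked peak of each gene by list (x axis: pooled signal on the deposited scale, log axis; y axis: gene list), with the 9 eggshell and egg surface genes in the top row, filled points for genes with a conservative peak, genes with no ranked peak left out and a dashed line at the median of 38.3 over protein-coding genes with a ranked peak. Filled points stand in the top row and singly in the rows of egg-4, egg-5, egg-6 and mbk-2, other cpg genes, the permeability barrier and yolk uptake, and none stands in the other rows.

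The genes most like each of the 4 members with a conservative peak were found by the distance between log2 values of the 2 replicates, over 882 or 883 genes with such a peak. Nearest to cpg-1 were enu-3.3 and mzt-1, which share a peak, with 133.6 in replicate 1 and 117.6 in replicate 2 (log2 distance 0.23), and npp-6 with 150.3 and 141.6 (0.26). Nearest to egg-1 were C28G1.2 and sec-15, which also share a peak, and cey-2, at distances of 0.05 to 0.06. Nearest to cpg-2 were mmab-1, mnk-1 and Y110A2AL.6, and nearest to chs-1 were K12C11.7 and the pair sup-35 and Y48A6C.4, all within 0.07. The likeness rests on only 2 values per gene, and how many further genes are almost as near was not counted.

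In base content most of the 8 genes other than cpg-2 lay below the median of other peaks, and only perm-2 and perm-4 lay above it. The other peaks used here include those near small RNA genes. The windows of 50 bases to each side of the summit were 41.6% G and C at cpg-1, 37.6% at egg-1 and 44.6% at chs-1, against a median of 49.5% with quartiles of 43.6 and 53.5 over 670 other conservative peaks near protein-coding starts. At the strongest peaks of the members without a conservative peak the values were 35.6% at cbd-1, 39.6% at egg-2, 44.6% at egg-3, 52.5% at perm-4 and 57.4% at perm-2, a range from below egg-1 to above the upper quartile. A search for words of 8 bases in the summit windows of the other conservative peaks, with both strands merged, gave GGGTTCGA as the leading word (4.62% of 1082 windows), and, without the peaks at small RNA genes, GCGAGACC, GCGCGAAA and CTAGGCCA (6.02%, 5.66% and 5.11% of 548 windows). Among the strongest peaks of the 8 genes other than cpg-2, the single one of these words found in a summit window was GCGCGAAA, which occurs on both strands at chs-1 in a pair of overlapping matches 36 and 40 bp from the summit.

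The word GCGGGAAA, which differs from GCGCGAAA at 1 position, was noticed in the printed sequences after they were read, so its count in the members is a description. Words of this form belong to the consensus bound by E2F family factors, which is given as background only. Within the 151 bases centred on the summit, the 3 genes other than cpg-2 with a conservative peak held 1 of the 2 words, GCGGGAAA at cpg-1 and egg-1 and GCGCGAAA at chs-1, at 15 to 54 bp from the summit. None of the strongest peaks of the other 5 genes held either, and neither did those of the 4 genes of the further lists with a conservative peak, cpg-8, egg-5, perm-1 and rme-2, of which 2 held a word in the 300 bases upstream of the start. The peak at egg-4, in the optimal list but not in the conservative one, held GCGCGAAA 42 bp from its summit. That same copy, which ended 240 bp before the egg-4 start, is the one in the 300 bases upstream of that start. The share holding either word was 10.04% of the 548 other conservative peaks near protein-coding starts and away from small RNA genes, 6.93% of all 1082 other conservative peaks and 1.63% of 43850 ranked peaks near such starts that are not in the conservative list. It was 1.64% in windows of the same length centred 174 bp upstream of 29773 protein-coding transcript starts. GCGCGAAA had been picked for its excess in the summit windows of those same 548 peaks, which are also among the 1082. The shares of these 2 sets are raised by that choice, so nothing is read from their difference from the other shares. In the 300 bases upstream of the start, 4 of these 8 genes held a word, the 3 above and cbd-1, whose copy ended 169 bp before the start, against 3.02% of protein-coding transcript starts. In the egg-2 stretch the closest match, GCGGGAAT, ended 117 bp upstream of the start, with 1 difference from the word of egg-1, A8T (counted from 1 at the 5′ end of the word), where the word of egg-1 ended 108 bp upstream. A match of letters is not evidence of a bound site, and its absence from a window says nothing about any factor.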

How the data were processed

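ZTF-28 ChIP-seq peaks from 2 biological replicates of whole young adult worms, 1 group, were used as deposited. The assembly is ce11, per the labels; aligner and peak caller: not given in the sources used here. Read depth is unknown. The authors deposited for each peak a signal of unstated scale, a score of at most 1000 that is a scaled form of the IDR, the −log10 of a q-value, and in ranked lists the −log10 of the global IDR; the deposited q-value was not used. Replicate values in the ranked list were named from equality with each replicate's own list, within 1e-05: the first equals replicate 1 at 1077 and the second replicate 2 at 1080 of 1086 conservative peaks, at 59473 and 58009 of 103094 ranked peaks, and at the strongest peak of every member. At the other ranked peaks the values were taken in the same order. The opposite match never occurred.

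Starts came from Ensembl release 115, and RefSeq supplied 644 of the 2811 symbols missing there. Summits were assigned within 1000 bp of a start. The members and the gene lists (egg-4, egg-5, egg-6 and mbk-2, chitin precursor synthesis, chondroitin synthesis, other cpg genes, permeability barrier, yolk uptake and oocyte maturation, vitellogenins, sperm proteins of fertilization) were chosen with earlier results of these data known, so no test was made. Named genes were the members, genes with a start within 1000 bp of a member's thresholded summit, list genes with a conservative peak, and the 3 genes nearest to each such member in log2 replicate values. Further names, egg-4, egg-6, mbk-2, cpg-3, cpg-4, cpg-7, gna-1, sls-2.4 and R12E2.18, and the genes nearest to summits were added after their values were seen. Intervals are 95% Wilson intervals and a count of 0 was taken to allow 3 counts. The sequence at the cpg-2 start is not reported here, so the base content and word counts cover the other 8 members. The assignment of summits was tested on simulated data. The word search without peaks at small RNA genes and the count of GCGGGAAA with GCGCGAAA were chosen after seeing the data. Alternatives were the optimal list, single replicates, other IDR limits, windows and assignment rules, RefSeq starts and merged peaks. Python 3.11.15, NumPy 2.4.6, pandas 2.3.3, SciPy 1.17.1 and matplotlib 3.10.9 were used.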

Additional observations from a re-analysis of the deposited data

How the results depend on the processing

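The count of 4 members with a thresholded peak ranged from 3 in the optimal list (without chs-1) to 5 where all ranked peaks with an IDR of at most 0.05 were used (with cbd-1), and was 4 under the IDR limit of 0.01, both narrower windows, overlap of the interval, the nearest start, RefSeq starts and merged peaks. It was 1, cpg-1, with an IDR of at most 0.001, and also 1 when either replicate was left out (range 1 to 1), where the authors' own threshold on the other replicate was used. The 884 protein-coding genes became 324 to 390 when a replicate was left out, 307 at an IDR of 0.001, 1861 at 0.05 and 482 when a summit counted for the nearest start only. The 4 genes of the other lists became 1 to 2 when a replicate was left out, 1 at an IDR of 0.001, 8 at 0.05, and 2 both within 500 bp and from 500 bp upstream to 200 bp downstream. The cause of these changes beyond the altered lists was not tested. The rank of a member, as a percentage of its list, moved by less than 1 SD of its ranks in the lists of the replicates alone in 34 settings and by more in 11. Where a replicate was left out, the rank compared is itself 1 of those from which the SD was made. The tally therefore does not measure robustness to the loss of a replicate. That SD is wide where the replicates differ, so moves within it could be large: ranked by IDR, perm-4 stood at 50.6% instead of 12.7% and egg-2 at 45.1% instead of 23.0%. Without replicate 1, chs-1 moved from 0.990% to 6.03%, egg-1 from 0.508% to 1.45%, egg-3 from 4.70% to 27.5% and egg-2 to 72.5%. Without replicate 2, cpg-2 moved from 1.09% to 5.45%, cbd-1 from 4.51% to 7.26%, perm-2 from 3.82% to 20.02% and perm-4 to 75.9%. With a window of 500 bp egg-2 stood at 95.01% and egg-3 at 47.2%. Each setting takes the strongest peak in the window, so some of these ranks belong to another peak. Without replicate 2 it lay 671 bp upstream at cbd-1, 548 bp upstream at perm-2 and 366 bp downstream at perm-4. Without replicate 1 it lay 618 bp upstream at egg-2. In the window of 500 bp it lay 283 bp downstream at egg-2 and 171 bp upstream at egg-3. At an IDR of at most 0.01 the ranked list held 1129 peaks, of which 43 are not in the conservative list, and no source used here says why. No paired analysis was possible because there is only 1 group. With 2 replicates, unknown depth and no control library analysed here, a gene without a thresholded peak cannot be called unbound.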
